A study of Rattus norvegicus with 32 samples.

Results

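Collagens, the enzymes that modify and cross-link them, the matrix metalloproteinases that cleave them and the tissue inhibitors of those proteinases were followed across 16 cultures of rat epithelial cells. The set was chosen with earlier results of these data known. Its members were defined by gene symbol: every probe set with exactly 1 symbol for a collagen chain (Col), lysyl oxidase (Lox, Loxl1 to Loxl4), lysyl hydroxylase (Plod), prolyl 4-hydroxylase (P4ha), metalloproteinase (Mmp) or inhibitor (Timp), with Col7a1 and Col17a1 left out. This gave 61 of the 15316 probe sets that carry 1 symbol, for 59 genes. There were 25 collagen probe sets, 11 of hydroxylating and cross-linking enzymes, 21 of metalloproteinases and 4 of inhibitors. Col6a4 had 3 probe sets and each of the other 58 genes had 1.

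All cultures came from Sprague-Dawley rats that express enhanced green fluorescent protein throughout (line CZ-004, act-EGFP), and all were grown on irradiated 3T3-J2 cells, a mouse fibroblast feeder line. Thymic epithelial cell (TEC) cultures before grafting were PRE16cl11_VII (donor stage E16, clonal), PRP1cl11_VII (P1, clonal), PRP4mo_bulk (4months, bulk) and PRP4mo_Cl09 (4months, clonal). After a first transplantation into skin of nude mice they were Clone_217 and Clone_218 (E16), Clone_57 (P1) and Clone_907 (4months, bulk). After a second transplantation they were Clone_287 and Clone_347 (E16), Clone_194 (P1) and Clone_354 (4months, bulk). Hair follicle (HF) cultures were YR219P5_Bulk_V (bulk) and YR219P5cl7 (clonal) before grafting, and YR219P5_RC (bulk) and Clone_54 (clonal) after a first transplantation, all under the label P5, which the labels do not explain. Grafted cells were recovered from skin with fluorescent follicles and cultured again. No ungrafted culture was taken through that recovery, so transplantation, recovery and further culture cannot be told apart, and neither can tissue and donor stage between TEC and HF cultures.

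Collagen chains are hydroxylated on proline and lysine in the endoplasmic reticulum, fold into triple helices and are secreted. Outside the cell, lysyl oxidases oxidise lysines of collagen and elastin, which then form covalent cross-links. Matrix metalloproteinases are zinc enzymes, secreted or bound to the membrane, that cleave collagens and other matrix proteins, and the TIMP proteins block their active sites. Fibroblasts are the main source of interstitial collagen in skin and thymus, whereas epithelial cells contribute to the basement membrane and secrete metalloproteinases, for example when keratinocytes close a wound.

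Each culture was measured on 2 arrays, which correlated at 0.9889 to 0.9979 across probe sets and were averaged. The values are log2 signals. The median log2 signal per array was 5.287 to 5.554, apart from 5.782 on 1 of the arrays of YR219P5_RC. Keratinocyte and epithelial markers were high in all 16 cultures (mean log2 level over 11 markers 10.85 to 11.39; Krt14 12.95 to 13.35), while 9 of 11 haematopoietic, 4 of 8 endothelial and 3 of 5 melanocyte markers were under 5 in all cultures. The others included Cd68 (5.17 to 8.78, highest in Clone_347), Lck (5.35 to 6.33), Tie1 (4.79 to 6.07), Mitf (4.52 to 6.34) and Sox10 (5.23 to 5.89). No detection calls were used, and signals under 5 were read as possibly at background. Nothing in the labels says that cultures came from separate animals, so p-values measure the spread between these cultures. With 4 cultures in each TEC group and 2 in each HF group, that number limits the precision.

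Some members varied widely between cultures. The mean level over the 16 cultures was at least 5 for 43 members (70.5%, against 65.4% of all 15316 probe sets), and 11 members stayed under 5 in every culture. A level of 8 or more was reached in some culture by 19 members, among them 4 of the 25 collagen probe sets (Col2a1, Col5a2, Col8a1 and Col12a1). The range over the 16 cultures was at least 2 log2 units for 17 members (27.9%, against 7.67% of all probe sets) and at least 4 for 6 members (9.84% against 1.08%). Those 6 were Mmp3, Plod2, Loxl1, Mmp12, Lox and Timp1. The highest culture of a member was YR219P5_RC for 16 members (26.2%, against 30.8% of all probe sets), PRP4mo_bulk for 13 (21.3% against 7.72%) and YR219P5_Bulk_V for 11 (18% against 7.99%).

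**Figure D1:**
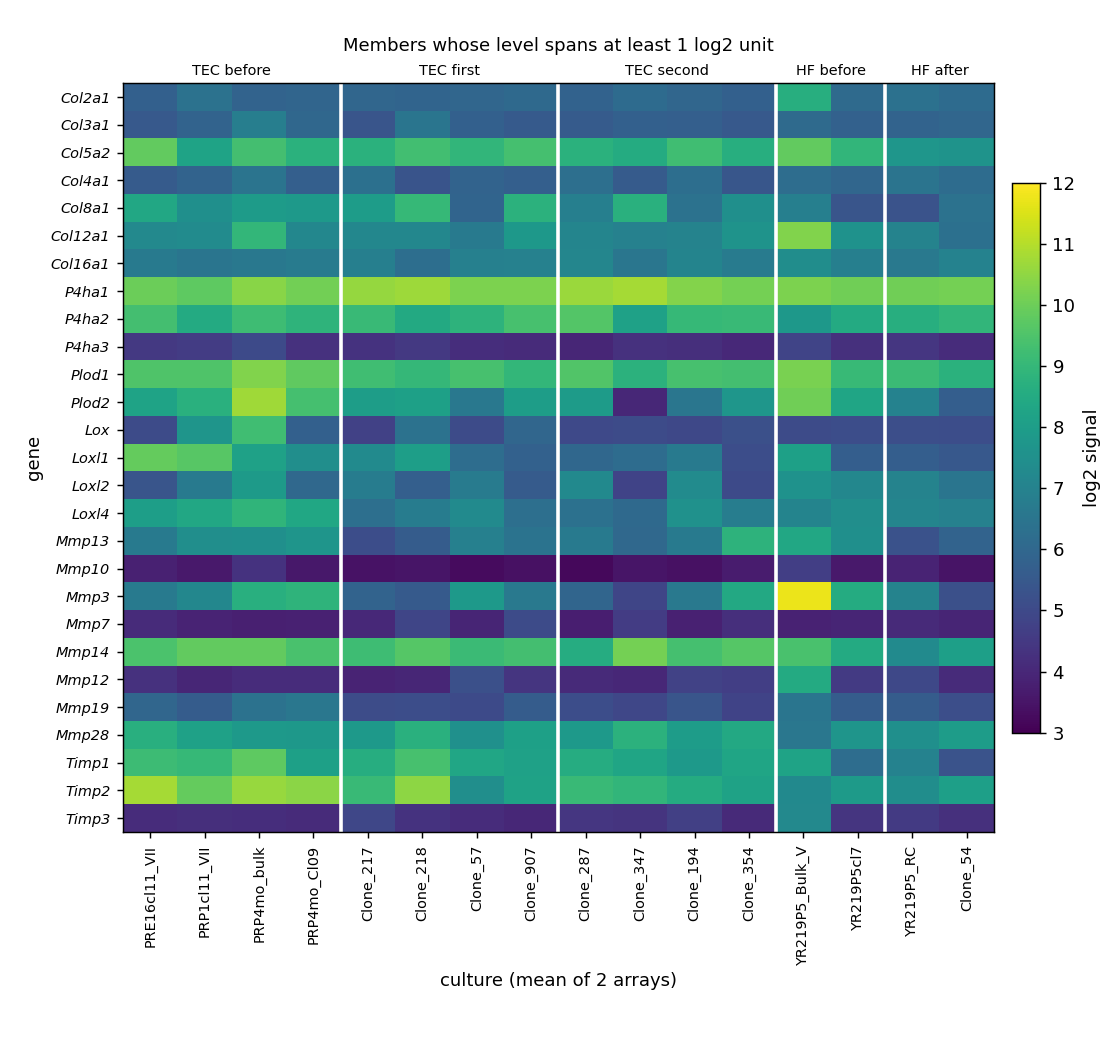
Log2 signal (colour) of the 27 members whose level spans at least 1 log2 unit, by gene (rows, grouped by role) and culture (columns, mean of 2 arrays), with white lines between the 5 groups. Loxl4 is brightest in the 4 TEC cultures before grafting (8.06 to 8.90), and Mmp3, Mmp12, Timp3, Col2a1 and Col12a1 are brightest in the HF bulk culture YR219P5_Bulk_V.

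Between TEC and HF cultures before grafting, which asks how the starting cultures differ, the inhibitor gene Timp2 (probe set 10749484) was higher in TEC cultures. TIMP2 inhibits metalloproteinases and also takes part in the activation of pro-MMP2 at the cell surface by MMP14. The Timp2 level was 10.78 in PRE16cl11_VII, 9.88 in PRP1cl11_VII, 10.59 in PRP4mo_bulk and 10.45 in PRP4mo_Cl09. In the HF cultures it was 7.27 in YR219P5_Bulk_V and 7.90 in YR219P5cl7. The groups did not overlap, and the lowest TEC culture lay well above the higher HF culture. The difference was 2.84 ± 0.60 log2 units (limma SE; 95% interval 1.56 to 4.13), or 7.18-fold (adjusted p = 0.0351, limma with Benjamini-Hochberg adjustment over all probe sets).

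Timp2 was the single member past the threshold of an adjusted p under 0.05 in that comparison, 1 of 61 beside 1.55% of all 15316 probe sets in either direction and 0.966% higher in TEC cultures. At an unadjusted p under 0.05 there were 21 members. The median log2 difference, TEC minus HF, was −0.10 over the members and −0.01 over all probe sets. The 4 TEC cultures lay above both HF cultures for 8 members (13.1%, against 12.8% of all) and below both for 15 (24.6%, against 13.1% of all). Of the 25 collagen probe sets 3 had a difference above 0, with a median of −0.24, and none passed. The call for Timp2 ended without PRE16cl11_VII (adjusted p = 0.0734), PRP4mo_bulk (0.07), PRP4mo_Cl09 (0.0754), YR219P5_Bulk_V (0.331) or YR219P5cl7 (0.0559), and with clonal cultures only (0.628), while the difference itself stayed between 2.47 and 3.16.

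The members of next smallest p before grafting were Plod3, Mmp12 and Timp3. Plod3, a lysyl hydroxylase that also glycosylates hydroxylysine, stood at 8.40, 8.61, 8.57 and 8.23 in the TEC cultures and at 8.13 and 7.97 in the HF cultures (difference 0.40 ± 0.12, adjusted p = 0.115). Mmp12, the macrophage elastase, stood at 3.96 to 4.28 in TEC cultures, at 8.49 in YR219P5_Bulk_V and at 4.53 in YR219P5cl7 (−2.37 ± 0.73, adjusted p = 0.142). Timp3, an inhibitor that binds to the matrix, stood at 4.11 to 4.21 in TEC cultures, at 7.22 in YR219P5_Bulk_V and at 4.40 in YR219P5cl7 (−1.65 ± 0.51, adjusted p = 0.142). For Mmp12 and Timp3 a single HF culture was high and the other was near the TEC cultures, so these differences rest on 1 culture.

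After transplantation, TEC cultures had less transcript of some genes of the lysyl oxidase family. Loxl4 (probe set 10715416) was lower after the first and after the second transplantation, and Loxl1 (probe set 10917883) was lower after the second. The proteinase genes Mmp19 and Mmp24 were also lower after the second transplantation. No member was higher past the threshold in either comparison. In these bulk measurements fewer cells of a kind and less RNA per cell cannot be told apart.

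Loxl4 encodes a lysyl oxidase with scavenger receptor domains, found in several epithelia. Before grafting its level was 8.06 in PRE16cl11_VII, 8.38 in PRP1cl11_VII, 8.90 in PRP4mo_bulk and 8.35 in PRP4mo_Cl09. After the first transplantation it was 6.27 in Clone_217, 6.79 in Clone_218, 7.31 in Clone_57 and 6.30 in Clone_907. All 4 grafted cultures lay below all 4 ungrafted ones. The difference was −1.76 ± 0.30 (95% interval −2.41 to −1.10), a 3.38-fold fall (adjusted p = 0.0267, limma). After the second transplantation Loxl4 stood at 6.34 in Clone_287, 6.09 in Clone_347, 7.57 in Clone_194 and 6.81 in Clone_354. The groups again did not overlap, and the culture of P1 origin was the highest in both grafted groups. The difference from ungrafted TEC cultures was −1.72 ± 0.30, a 3.30-fold fall (adjusted p = 0.0117). HF cultures had Loxl4 levels of 7.06 and 7.43 before and 7.09 and 6.94 after grafting, all below the ungrafted TEC cultures.

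Loxl1 encodes a lysyl oxidase needed for the assembly of elastic fibres. Its level in ungrafted TEC cultures was 9.88 in PRE16cl11_VII, 9.66 in PRP1cl11_VII, 8.15 in PRP4mo_bulk and 7.44 in PRP4mo_Cl09. After the first transplantation it was 7.32 in Clone_217, 8.05 in Clone_218, 6.22 in Clone_57 and 5.78 in Clone_907, and after the second it was 6.01 in Clone_287, 6.17 in Clone_347, 6.67 in Clone_194 and 5.12 in Clone_354. The first group overlapped the ungrafted one and the second did not. The difference was −2.79 ± 0.65 after the second transplantation (95% interval −4.19 to −1.39), a 6.91-fold fall (adjusted p = 0.0336). After the first it was −1.94 ± 0.65 and did not pass (adjusted p = 0.191).

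The Loxl1 levels of TEC cultures are also given by donor stage. In E16 cultures it went from 9.88 before grafting to 7.32 and 8.05 after the first and 6.01 and 6.17 after the second transplantation. In P1 cultures the levels were 9.66, 6.22 and 6.67, and in cultures of 4-month donors they were 8.15 and 7.44, then 5.78, then 5.12. Within every stage each grafted culture thus lay below each ungrafted one. With donor stage in the model the Loxl1 difference was −2.37 after the first transplantation (adjusted p = 0.0461) and −3.22 after the second (adjusted p = 0.00646). The stage comparison itself, 4 months minus E16 with transplantation in the model, gave −1.70 ± 0.34 for Loxl1 and did not pass (adjusted p = 0.13).

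The letters before the start of Loxl4 and Loxl1 are shown because these were the lysyl oxidase genes past the threshold after transplantation. RefSeq promoter entries (build GRCr8, 250 bases before the start) were matched for 46 of the 59 member genes, and the last 110 of those bases are printed 5′ to 3′ on the strand of the gene. They were searched on both strands for TGAGTCA, the letters bound by the factor AP-1, and TATAAA, the TATA box. Neither window holds them, so no letter is in capitals.

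Loxl4 (chr1:251365578-251365687, minus strand): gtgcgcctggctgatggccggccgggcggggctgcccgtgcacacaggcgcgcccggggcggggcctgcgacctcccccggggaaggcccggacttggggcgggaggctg
Loxl1 (chr8:67612225-67612334, minus strand): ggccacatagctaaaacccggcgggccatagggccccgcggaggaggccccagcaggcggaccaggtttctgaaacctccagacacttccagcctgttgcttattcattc

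Among the other lysyl oxidases, Lox was high in a few ungrafted TEC cultures. Lox, the founding member of the family, stood at 5.05 in PRE16cl11_VII, 7.70 in PRP1cl11_VII, 9.23 in PRP4mo_bulk and 5.75 in PRP4mo_Cl09, and at 4.72, 6.40, 5.04 and 5.97 after the first transplantation. After the second it was 4.96 to 5.21 in all 4 cultures, and in the 4 HF cultures 5.06 to 5.18. The difference after the second transplantation was −1.88 ± 0.68 and did not pass (adjusted p = 0.139). Without PRE16cl11_VII, an ungrafted culture of low Lox, it was −2.51 and passed (adjusted p = 0.0431). Loxl2, which also oxidises basement membrane collagen, ranged from 4.80 (Clone_347) to 7.92 (PRP4mo_bulk) with no separation of the TEC groups. In HF cultures Loxl2 stood at 7.60 and 7.16 before and 7.02 and 6.49 after grafting. Loxl3 ranged from 4.92 to 5.60. All 5 family members had a difference below 0 in both grafted groups, with medians of −1.40 and −1.72. Of all 15316 probe sets, 8034 and 8168 had a difference above 0. The falls of Loxl2 (mean 6.51, then 6.22 and 6.11) and Loxl3 (5.27, then 5.11 and 5.08) were small. Of the 5, 1 passed after the first and 2 after the second transplantation, beside 0.516% and 3.86% of all probe sets in either direction.

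Mmp19 (probe set 10893231), a metalloproteinase of basal keratinocytes and other tissues, stood at 5.97, 5.61, 6.40 and 6.59 in ungrafted TEC cultures and at 5.12, 4.93, 5.36 and 4.81 after the second transplantation. The groups did not overlap, although Clone_347 and Clone_354 lay under 5. The difference was −1.09 ± 0.24, a 2.12-fold fall (adjusted p = 0.027). Mmp24, a membrane-type metalloproteinase best known from neurons, stood at 5.20, 5.67, 5.67 and 5.86 before and 4.92, 5.24, 5.09 and 5.16 after the second transplantation. PRE16cl11_VII lay within the grafted range, and all levels were near 5. The difference was −0.50 ± 0.12, a 1.41-fold fall (adjusted p = 0.04). After the first transplantation the differences of Mmp24 (−0.50 ± 0.12, adjusted p = 0.0864) and Mmp19 (−0.91 ± 0.24, adjusted p = 0.11) did not pass.

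**Figure D2:**
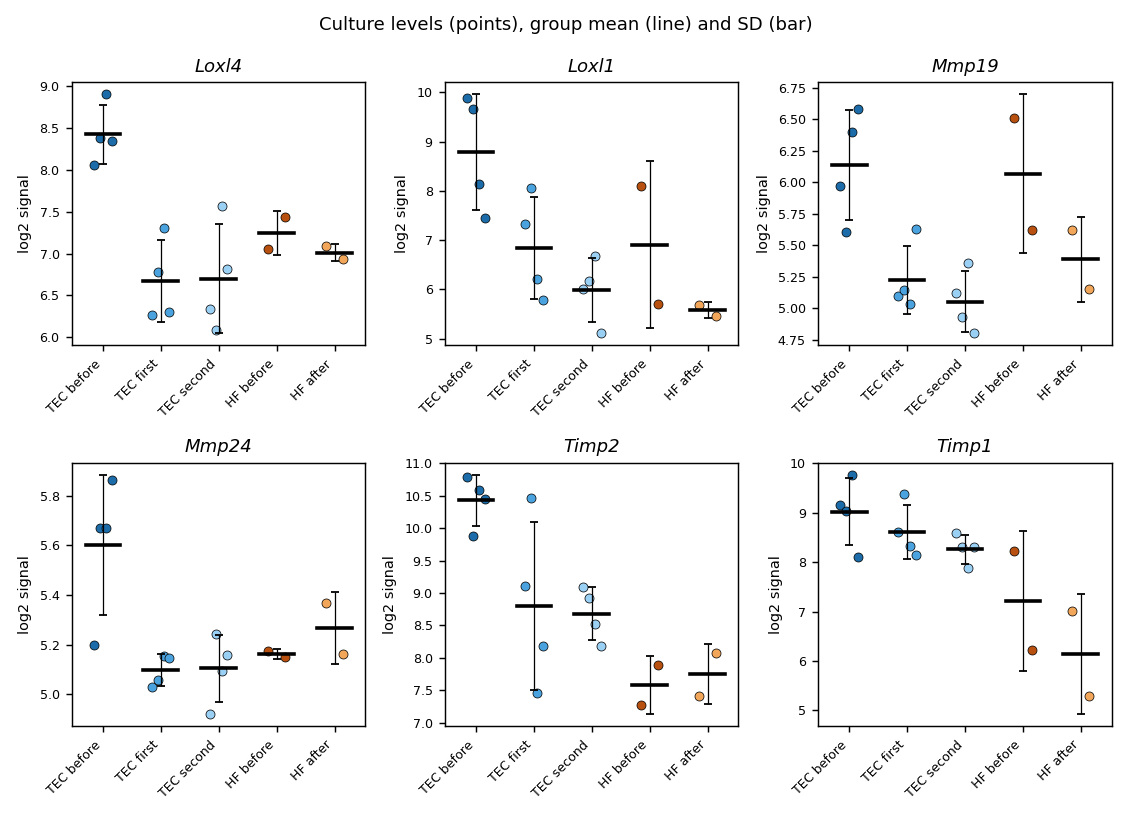
Log2 signal of 6 members in the 5 groups (points, cultures; line, group mean; bar, SD; vertical axes differ between panels and do not start at 0; n = 4, 4, 4, 2 and 2). Loxl4 in ungrafted TEC cultures (8.06 to 8.90) lies above every grafted TEC culture (6.09 to 7.57), and Timp2 in ungrafted TEC cultures (9.88 to 10.78) lies above both ungrafted HF cultures.

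Of the 61 members, limma called 1 lower after the first transplantation, beside 0.516% of all probe sets in either direction and 0.3% lower, and 4 lower after the second, beside 3.86% of all in either direction and 1.93% lower. At an unadjusted p under 0.05 (limma) there were 10 members and 2270 probe sets after the first, and 12 members and 3007 probe sets after the second. The median log2 difference over the members was −0.04 after the first and −0.01 after the second transplantation, with 0.01 over all probe sets in both. No overlap with the ungrafted cultures was seen for 5 members after the first transplantation, all lower (8.2%, against 4.03% of all probe sets lower and 3.92% higher), and for 6 after the second, all lower (9.84%, against 5.43% lower and 6.43% higher). Single cultures decided several of these calls. The Loxl4 call after the second transplantation was kept whichever culture was left out, and ended with clonal cultures only (adjusted p = 0.128). The Loxl4 call after the first ended without PRP1cl11_VII (adjusted p = 0.0518), PRP4mo_bulk (0.0893), PRP4mo_Cl09 (0.0774), Clone_217 (0.106) or Clone_907 (0.0744), with clonal cultures only (0.284), and with only these groups in the fit (0.0563).

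The Loxl1 call ended without PRE16cl11_VII (adjusted p = 0.0695), PRP1cl11_VII (0.0829), PRP4mo_bulk (0.0645), Clone_287 (0.0507), Clone_347 (0.0718), Clone_194 (0.052) or Clone_354 (0.0808), and with clonal cultures only (0.129), over which the difference stayed between −2.42 and −3.02. The Mmp19 call ended without PRP4mo_bulk (0.0836), PRP4mo_Cl09 (0.0866), Clone_347 (0.0688) or Clone_354 (0.0672), and with clonal cultures only (0.131). Mmp24 lost its call without any 1 of 7 cultures, PRE16cl11_VII being the exception among the 8 compared (adjusted p of 0.0598 to 0.118), and also with only the compared groups (0.102) or clonal cultures only (0.248).

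**Figure D3:**
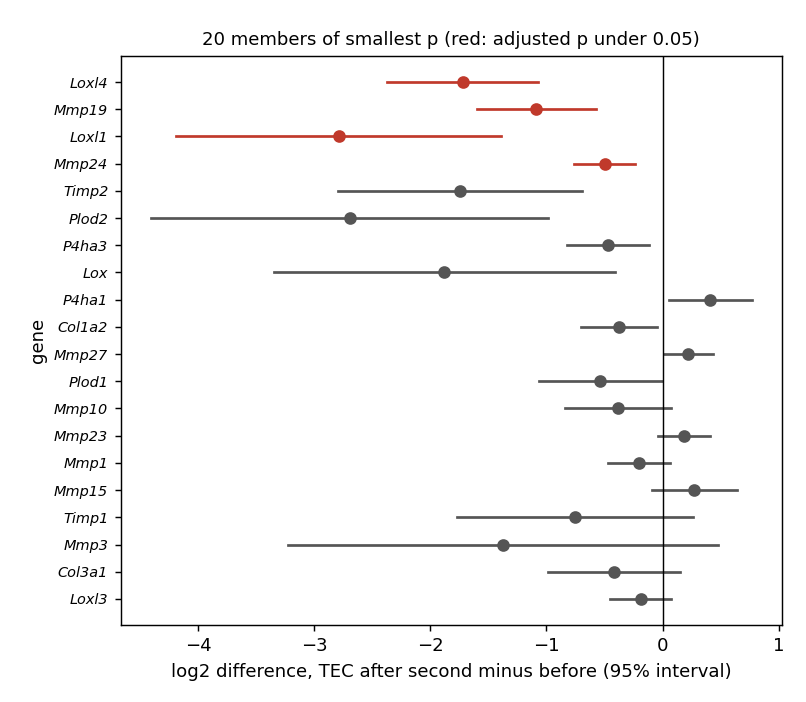
Log2 difference between TEC cultures after the second transplantation and before grafting (points) with limma's 95% interval (lines) for the 20 members of smallest p, in order of p. Loxl4, Mmp19, Loxl1 and Mmp24 (red) passed an adjusted p under 0.05. Timp2, Plod2 and Lox are among the other members whose intervals exclude 0, and theirs lie below it.

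The hydroxylases differed less clearly. Plod2, the lysyl hydroxylase of collagen telopeptides, had levels of 8.21, 8.70, 10.73 and 9.35 in ungrafted TEC cultures, 8.01, 8.10, 6.59 and 8.03 after the first transplantation, and 7.93, 4.02, 6.54 and 7.74 after the second. The grafted cultures all lay below the ungrafted ones, and Clone_347 stood apart at a level under 5 on both of its arrays. The difference after the second transplantation was −2.69 ± 0.80 and did not pass (adjusted p = 0.074). In HF cultures Plod2 stood at 10.06 and 8.30 before and 7.01 and 5.70 after grafting (−2.83 ± 1.13, adjusted p = 0.562). Plod1, another lysyl hydroxylase, differed by −0.65 ± 0.25 after the first and −0.54 ± 0.25 after the second transplantation (adjusted p = 0.238 and 0.247). P4ha1, a catalytic subunit of prolyl 4-hydroxylase, was high throughout (9.76 to 10.77). Its mean was 10.06 in ungrafted TEC cultures, 10.43 after the first and 10.47 after the second transplantation. It did not pass in the main fit, and passed as higher after the second with arrays as units (0.41, limma adjusted p = 0.0345). P4ha2 lay between 7.79 (YR219P5_Bulk_V) and 9.61 (Clone_287). P4ha3 ranged from 3.98 to 5.03.

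Fibroblast and feeder markers had a lower summed level in grafted than in ungrafted TEC cultures, while the HF groups nearly met. Their summed log2 level over 22 probe sets was 128.6 to 136.8 in ungrafted TEC cultures, 120.0 to 123.5 after the first and 120.2 to 122.4 after the second transplantation, 127.2 to 137.6 in ungrafted HF and 123.4 to 127.1 in grafted HF cultures. After the second transplantation S100a4 (−1.70 ± 0.31) and Twist1 (−1.21 ± 0.24) were lower past the threshold and 20 of 22 did not pass, beside 1.93% of all probe sets called lower. A difference above 0 was found for 6 of 22, beside 8168 of all 15316 probe sets. After the first, 0 of 22 passed (0.516% of all in either direction) and 5 were above 0, beside 8034 of all 15316. Of the 22, 8 were under 5 in all 16 cultures, among them Pdgfrb (4.36 to 4.83), Dcn (3.47 to 4.41) and Lum (2.46 to 2.87). Another 8 were at 5 or more in all 16, among them Sparc (6.99 to 11.86), Vim (6.85 to 11.81) and Acta2 (8.07 to 8.44), and 6 lay on both sides of 5. The part of these markers in the Loxl1, Loxl4 and Mmp19 differences was not tested.

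Col1a1, Col1a2 and Col3a1, chains of the collagens that make up most of the interstitial matrix, passed in no comparison by limma. Col1a1 and Col1a2, the chains of type I collagen, ranged from 6.58 to 7.23 and from 6.33 to 7.17 over the 16 cultures. Col1a1 differed by −0.21 (95% interval −0.49 to 0.07) after the first and −0.01 (−0.29 to 0.27) after the second transplantation in TEC cultures, and by −0.06 (−0.40 to 0.28) between ungrafted TEC and HF cultures. Col1a2 differed by −0.37 ± 0.15 and −0.38 ± 0.15 after the transplantations and did not pass (adjusted p = 0.266 and 0.18). Col3a1, the type III chain, ranged from 5.36 (Clone_217) to 6.85 (PRP4mo_bulk), a span of 1.49 beside a median of 0.75 log2 units over all probe sets, with adjusted p of 0.422 or more in each of the 9 comparisons. None of the 10 fibrillar collagen probe sets passed in any comparison by limma.

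Col5a2, a chain of the type V collagen that controls the width of fibrils, was well above 5 in every culture. Its levels were 9.83, 8.22, 9.32 and 8.74 in ungrafted TEC cultures, 8.76 to 9.36 after the first and 8.54 to 9.24 after the second transplantation. In HF cultures it stood at 9.83 and 8.92 before and at 7.73 and 7.63 after grafting. The grafted HF cultures thus lay below every other culture. The HF difference was −1.69 ± 0.43 (3.24-fold) and did not pass (adjusted p = 0.562), and the difference of grafted TEC from grafted HF cultures was 1.40 ± 0.37 after the first and 1.12 ± 0.37 after the second transplantation (adjusted p = 0.168 and 0.14). Without YR219P5cl7 the HF difference was −2.15, in a fit whose ungrafted HF group is a single culture, assumed to vary like the other groups.

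Among the other collagens, Col12a1 was high in YR219P5_Bulk_V and PRP4mo_bulk, and Col2a1 in YR219P5_Bulk_V only. Col12a1, which decorates fibrils, stood at 10.29 in YR219P5_Bulk_V and 8.94 in PRP4mo_bulk, and at 6.31 to 7.80 in the other 14. Those 14 include the bulk cultures Clone_907 (7.80), Clone_354 (7.63) and YR219P5_RC (7.03). Col2a1, the cartilage collagen, stood at 8.64 in YR219P5_Bulk_V and at 5.74 to 6.39 elsewhere. Col8a1, a short-chain network collagen, was 7.47 to 8.41 in ungrafted TEC cultures and 6.87 and 5.36 in ungrafted HF cultures (1.81 ± 0.78, adjusted p = 0.332), with no overlap of these groups, and it spread from 5.91 (Clone_57) to 9.04 (Clone_218) after the first transplantation. After the second it was 6.41 to 8.70, above the grafted HF cultures at 5.31 and 6.38. Col4a1, a basement membrane chain, ranged from 5.34 to 6.47. The 3 Col6a4 probe sets lay between 4.14 and 5.31.

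**Figure D4:**
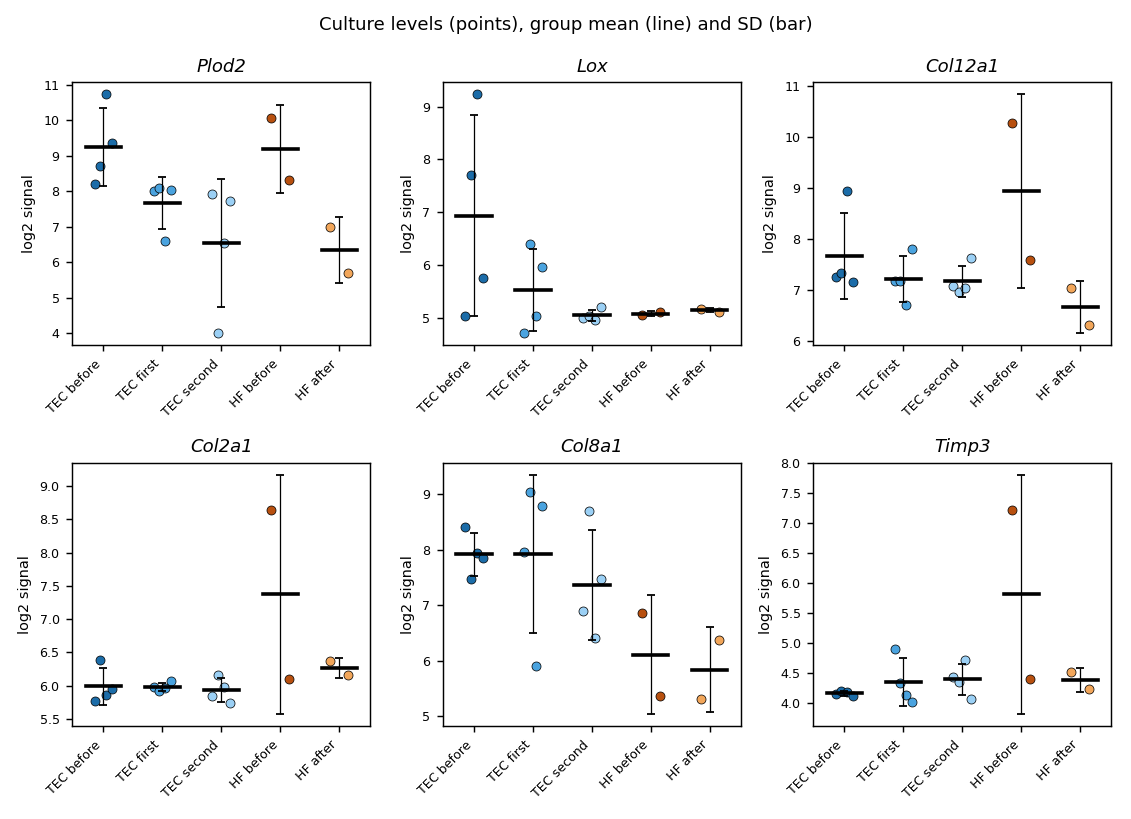
Log2 signal of 6 widely varying members in the 5 groups (points, cultures; line, group mean; bar, SD; vertical axes differ between panels and do not start at 0; n = 4, 4, 4, 2 and 2). Col12a1, Col2a1 and Timp3 are high in 1 ungrafted HF culture, YR219P5_Bulk_V (10.29, 8.64 and 7.22), and Plod2 is at 4.02 in 1 TEC culture after the second transplantation.

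The metalloproteinases include 9 members that are neighbours on chromosome 8, in the order Mmp13, Mmp12, Mmp3, Mmp1, Mmp10, Mmp8, Mmp27, Mmp20 and Mmp7, with Mmp1b, which is no member, between Mmp12 and Mmp3. Among the 33469 RefSeq promoters, TGAGTCA stood on either strand in the 250 bases before the start in 4.05%, and TATAAA in 12.9%. Of the 46 member promoters, 6 (13.0%) held TGAGTCA, all of them in this run of genes, and 12 (26.1%) held TATAAA. Of the 15 metalloproteinase promoters, 6 and 9 held these letters. The CCAAT box (CCAAT) and the hypoxia core (ACGTG) were searched too. They stood in 34.0% and 16.6% of all promoters, and in 23.9% and 15.2% of the member promoters. The last 110 bases before the start of these 6 genes are shown with TGAGTCA and TATAAA in capitals (GRCr8, strand of the gene); in Mmp13 the first stands on the opposite strand and reads TGACTCA. A match describes letters and is no evidence of binding.

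Mmp13 (chr8:12782719-12782828, plus strand): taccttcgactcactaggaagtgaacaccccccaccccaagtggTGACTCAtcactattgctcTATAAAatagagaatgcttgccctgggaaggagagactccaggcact
Mmp12 (chr8:12866542-12866651, plus strand): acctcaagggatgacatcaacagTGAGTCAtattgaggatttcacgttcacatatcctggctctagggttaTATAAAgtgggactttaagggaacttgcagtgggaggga
Mmp3 (chr8:12925171-12925280, plus strand): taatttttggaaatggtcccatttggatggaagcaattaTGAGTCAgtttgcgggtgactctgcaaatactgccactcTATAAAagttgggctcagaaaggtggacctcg
Mmp1 (chr8:12943343-12943452, plus strand): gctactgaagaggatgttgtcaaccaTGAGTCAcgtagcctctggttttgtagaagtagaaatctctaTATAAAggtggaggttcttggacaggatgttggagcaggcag
Mmp10 (chr8:12974597-12974706, plus strand): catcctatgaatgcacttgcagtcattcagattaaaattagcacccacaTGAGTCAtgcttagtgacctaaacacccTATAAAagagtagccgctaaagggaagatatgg
Mmp7 (chr8:13132933-13133042, plus strand): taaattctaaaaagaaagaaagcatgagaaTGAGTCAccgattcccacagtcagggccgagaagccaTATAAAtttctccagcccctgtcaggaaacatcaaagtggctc

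The first motif lay 71 to 65 bases before the start in Mmp3, 87 to 81 in Mmp12, 66 to 60 in Mmp13, 61 to 55 in Mmp10, 84 to 78 in Mmp1 and 80 to 74 in Mmp7. Their levels follow gene by gene. Mmp3, stromelysin 1, stood at 6.66, 7.16, 8.69 and 8.85 in ungrafted TEC cultures, at 5.85, 5.55, 7.83 and 6.64 after the first and at 5.92, 4.88, 6.64 and 8.42 after the second transplantation. In HF cultures it was 11.72 in YR219P5_Bulk_V and 8.52 in YR219P5cl7 before and 7.03 and 5.19 after grafting. The ungrafted HF bulk culture was the highest by far, and grafted HF cultures lay below both ungrafted ones. The HF difference was −4.01 ± 1.22 (95% interval −6.62 to −1.39) and did not pass (adjusted p = 0.562). In TEC cultures the difference was −1.37 ± 0.86 after each transplantation (adjusted p = 0.492 and 0.42).

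Mmp13, collagenase 3, ran from 6.69 to 7.68 in ungrafted TEC cultures, 5.13 to 6.91 after the first and 6.03 to 8.83 after the second transplantation, and stood at 8.40 and 7.47 in HF cultures before and 5.28 and 5.87 after grafting (HF difference −2.36 ± 0.74, adjusted p = 0.562). Mmp12 reached 8.49 in YR219P5_Bulk_V and was 3.91 to 5.18 in the other 15 cultures. Mmp10, stromelysin 2, stayed between 3.20 and 4.68, with its highest level also in YR219P5_Bulk_V, and Mmp1, the interstitial collagenase, between 2.82 and 3.41. Mmp7, matrilysin, ranged from 3.75 to 5.06, highest in Clone_907. Mmp8, Mmp20 and Mmp27 stayed under 5. Of the 6 genes with both motifs shown, Mmp1 and Mmp10 thus stayed under 5 in every culture, while Mmp3, Mmp12 and Mmp13 differed by more than 3 log2 units between cultures.

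**Figure D5:**
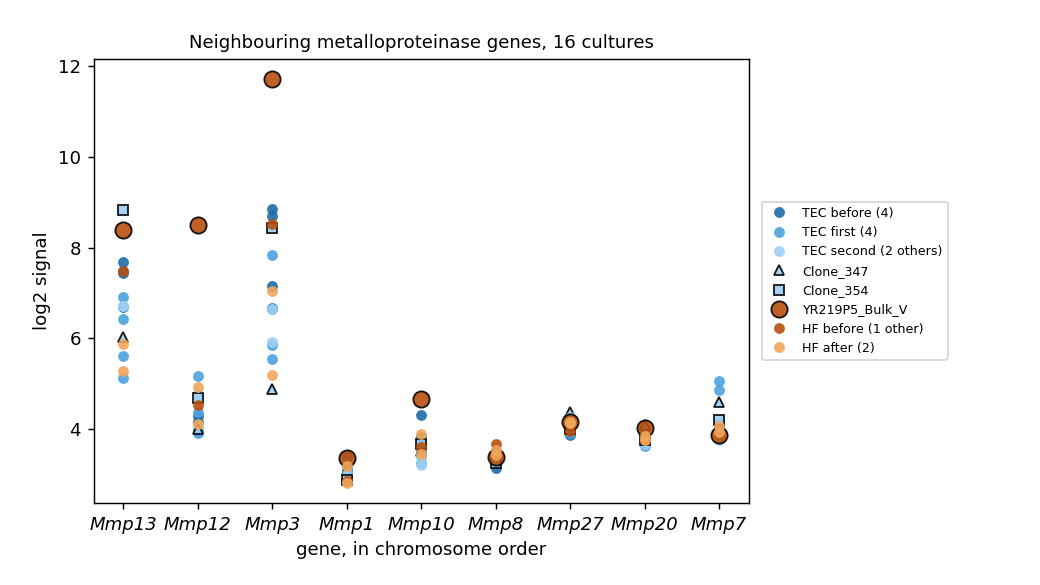
Log2 signal of the 9 neighbouring metalloproteinase members (horizontal axis, in chromosome order) in 16 cultures (points coloured by group, with 3 cultures marked by outlines; signals compare cultures within a gene, not genes). YR219P5_Bulk_V is highest for Mmp12 (8.49) and Mmp3 (11.72), Clone_354 is highest for Mmp13 (8.83), and Mmp1, Mmp10, Mmp8, Mmp27 and Mmp20 stay under 5.

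YR219P5_Bulk_V also stood apart in some markers of other cells. Its fibroblast and feeder sum was the highest of all cultures (137.6), but close to that of the TEC bulk culture PRP4mo_bulk (136.8). In YR219P5_Bulk_V Tagln was 9.27 and Thy1 6.77, against 4.91 to 8.26 and 4.48 to 6.64 elsewhere. Its epithelial markers went both ways. Epcam (7.64) and Cdh1 (9.19) were the lowest of all cultures (9.73 to 10.87 and 10.44 to 10.79 elsewhere), as was Pkp1 (11.07). Tp63 (10.10) and Dsc3 (11.98) were the highest of all cultures, and Krt14 was 13.10. The mean over the 11 epithelial markers was 11.05 in YR219P5_Bulk_V, within the range of the other cultures. Of the 22 fibroblast and feeder markers, 4 were highest there, Tagln, Thy1, Vim (11.81) and Fbn1 (5.93), while Sparc was 11.25, Dcn 3.90 and Lum 2.48. The part of what these markers stand for in the levels of Mmp3, Mmp12, Timp3, Col2a1 and Col12a1 was not tested. Without the other ungrafted HF culture, YR219P5cl7, so that YR219P5_Bulk_V stands for the group alone and is assumed to vary like the other groups, Timp3, Col2a1, Mmp12 and Col12a1 passed against ungrafted TEC cultures (−3.06, −2.65, −4.36 and −2.61; adjusted p up to 0.0312) and, with Col5a2, against grafted HF cultures. Without YR219P5_Bulk_V none of these calls were made.

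Among metalloproteinases outside this run, Mmp14, the membrane-bound activator of pro-MMP2, was high in TEC cultures and lowest in grafted HF cultures. It ran from 9.42 to 9.83 in ungrafted TEC cultures, 9.13 to 9.63 after the first and 8.56 to 10.13 after the second transplantation. The HF cultures stood at 9.41 and 8.50 before and 7.30 and 8.08 after grafting. No grafted TEC culture overlapped the grafted HF cultures. The difference was 1.63 ± 0.36 after the first and 1.73 ± 0.36 after the second transplantation, neither past the threshold (adjusted p = 0.134 and 0.0939). Its partner proteinase gene Mmp2, a gelatinase, ranged only from 5.73 to 6.52, and Mmp9, the other gelatinase, from 4.34 to 5.25. Mmp28, epilysin of keratinocytes, ranged from 6.57 (YR219P5_Bulk_V) to 8.79 (Clone_347).

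Among the inhibitors, the Timp2 level after the first transplantation was 9.11 in Clone_217, 10.47 in Clone_218, 7.46 in Clone_57 and 8.18 in Clone_907, and after the second it was 9.10, 8.93, 8.52 and 8.18. Clone_218 lay within the ungrafted TEC range, and all cultures of the second transplantation lay below that range. The differences from ungrafted TEC cultures were −1.62 ± 0.49 and −1.75 ± 0.49 and did not pass (adjusted p = 0.148 and 0.062). With donor stage in the model they were −1.85 and −1.97 and both passed (adjusted p = 0.0418 and 0.014). The second also passed with only the compared groups (adjusted p = 0.0143) or only probe sets of mean level 5 or more (0.0477), and the first without Clone_218 (0.0181). Grafted HF cultures stood at 7.42 and 8.07. The Timp2 promoter window (GRCr8) is shown because Timp2 was the single member past the threshold between ungrafted TEC and HF cultures. It holds neither motif.

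Timp2 (chr10:104089215-104089324, minus strand): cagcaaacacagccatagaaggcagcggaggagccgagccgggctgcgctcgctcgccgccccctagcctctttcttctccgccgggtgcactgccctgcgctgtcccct

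Timp1, induced in many epithelia by growth factors, stood at 9.16, 9.05, 9.76 and 8.11 in ungrafted TEC cultures, 8.14 to 9.38 after the first and 7.87 to 8.58 after the second transplantation. In HF cultures it was 8.22 and 6.22 before and 7.004 and 5.29 after grafting. Grafted TEC cultures did not overlap grafted HF cultures (2.47 ± 0.58 and 2.12 ± 0.58; adjusted p = 0.158 and 0.12). Timp4 stayed between 4.17 and 4.77, and Timp3 was under 5 in every culture but YR219P5_Bulk_V.

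Grafted HF cultures, compared with ungrafted ones to ask what transplantation does to cells of skin origin, gave 0 members past the threshold with limma, beside 0% of all probe sets, with 9 members and 1354 probe sets at an unadjusted p under 0.05. Both grafted cultures lay above both ungrafted ones for 18 members (29.5%, against 30.2% of all) and below for 10 (16.4%, against 11.1%). The members of smallest p were Col5a2, Mmp3 and Mmp13, all with lower levels in both grafted cultures. Between grafted TEC and grafted HF cultures limma called 0 members after the first transplantation (0.0718% of all; 16 members at an unadjusted p under 0.05) and 0 after the second (0.0457% of all; 19 members). Groups did not overlap for 6 members higher (9.84%, against 6.37% of all) and 20 lower (32.8%, against 19.2%) in TEC cultures after the first transplantation, and for 7 higher (11.5%, against 9.32%) and 12 lower (19.7%, against 15.3%) after the second. Plod3, Mmp14 and Timp1 had the smallest p in both. Plod3 stood at 8.43 to 8.74 in the 8 grafted TEC cultures and at 8.02 and 7.98 in the grafted HF cultures (0.59 ± 0.12 in both comparisons; adjusted p = 0.134 and 0.0855). Centring each array on its median moved the median over all probe sets from −0.11 to 0.03 in both comparisons, and Plod3 then passed in both (0.72 and 0.73; adjusted p = 0.0415 and 0.0267) and Mmp14 in the second (1.87, adjusted p = 0.0466). Without Clone_287, Plod3 and Mmp14 passed after the second transplantation (adjusted p = 0.0309 and 0.00604).

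TEC cultures after the second transplantation were also set against those after the first, and limma called 0 members (0% of all probe sets), with 0 members and 532 probe sets at an unadjusted p under 0.05. No member separated these groups, beside 0.934% of all probe sets higher and 0.47% lower. Mmp13 (1.05 ± 0.53), Mmp27 (0.18 ± 0.10) and Mmp23 (0.17 ± 0.10) had the smallest p. Loxl4 was 6.67 ± 0.49 after the first and 6.70 ± 0.65 after the second transplantation (SD, n = 4 each), and Loxl1 was 6.84 ± 1.03 and 5.99 ± 0.65. Whether TEC and HF cultures respond differently to a first transplantation was tested as an interaction, which gave 0 members and 0% of all probe sets with limma, with 4 members at an unadjusted p under 0.05. The interaction, the TEC difference minus the HF difference, was −1.53 ± 0.52 for Loxl4 and 1.75 ± 0.52 for Col5a2 (adjusted p = 0.827 for both). The fall of Loxl4 was therefore not shown to be particular to TEC cultures.

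Donor stage, 4 months against E16 in the 12 TEC cultures, gave 0 members past the threshold with limma, beside 0.0914% of all probe sets, and 6 members at an unadjusted p under 0.05. Beside Loxl1, the smallest p were those of Mmp3 (2.13 ± 0.43, adjusted p = 0.136) and Mmp13 (1.44 ± 0.35, adjusted p = 0.197), both higher at 4 months. The Mmp3 levels of the 4 cultures of 4-month donors were 8.69, 8.85, 6.64 and 8.42, and those of the 5 E16 cultures 6.66, 5.85, 5.55, 5.92 and 4.88. The groups overlapped by Clone_907 at 6.64. Without Clone_907 the Mmp3 difference was 2.77 and passed (adjusted p = 0.0233).

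Genes that act with these members were counted from lists of the same pathways. Of 22 probe sets for procollagen folding, transport and processing, 2 fell after the second transplantation, P3h4, a partner of lysyl hydroxylase 1 (−1.05 ± 0.21), and Ppib, a collagen prolyl isomerase (−0.48 ± 0.12), and 20 did not pass (9.09% called, beside 3.86% of all probe sets in either direction). Adamts3, a procollagen N-proteinase, was lower in ungrafted TEC than HF cultures (−1.74 ± 0.32). Of 19 other extracellular proteinases and regulators, Plaur, the urokinase receptor, was higher (1.82 ± 0.38) and Adamts4, an aggrecanase, lower (−2.09 ± 0.43) in ungrafted TEC than HF cultures. Plaur fell after the first transplantation (−1.90 ± 0.31), and Plaur (−2.18 ± 0.31) and Plau, urokinase (−1.30 ± 0.32), fell after the second. The share of all probe sets called in either direction was 1.55% between ungrafted TEC and HF cultures, 0.516% after the first and 3.86% after the second transplantation. None of the 17 elastic fibre genes, 9 collagen receptors or 11 TGF-beta matrix targets passed in any comparison by limma.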

How the data were processed

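RNA of 32 arrays (16 cultures, 2 arrays each) was amplified and biotin-labelled for Affymetrix rat gene arrays, per the labels. The authors deposited RMA values on a log2 scale. Expression Console (Affymetrix) is the tool given in the submitters' processing notes; versions and the array annotation are not given in the sources used here. Of 29215 probe sets, 15316 had exactly 1 symbol (317 had several, 13582 no listed gene), and all 61 members were found in the RefSeq gene table. No value was transformed again.

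Arrays of a culture were averaged, and the 15316 probe sets were fitted over 5 groups with lmFit and eBayes of limma 3.58.1 in R 4.3.3, checked on simulated data. P-values were adjusted by the Benjamini-Hochberg method within each of 9 comparisons, at a threshold of 0.05. Errors are limma standard errors for differences and SD between cultures for levels. Comparisons that share a group are not independent.

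The members, the lists and the rule for named genes were chosen with earlier results of these data known. Named were members past the threshold, Loxl1, Col1a1, Col1a2, Col3a1 and Col5a2, the 3 members of smallest p where fewer than 3 passed, and the widest-ranging member of each role; other members named for their levels were chosen after the values were seen. Alternatives were array centring, quantile normalization, a mean level of at least 5, arrays as units with a culture block, limma with trend and robust, leaving out 1 array or each culture, only the compared groups, donor stage as covariate, and clonal cultures only. Motifs were searched on both strands of RefSeq promoters (GRCr8).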

Additional observations from a re-analysis of the deposited data

Results flagged for a closer look

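Groups of 4 cultures were searched for a culture far from the other 3 (a gap above Dixon's 95% critical value) in the 27 members named in the comparisons or widest in their role, 81 groups in all, of which 3 stood out; chance alone marks about 1 in 20 such groups. In ungrafted TEC cultures, Col12a1 was high in PRP4mo_bulk at 8.94, with 7.17 to 7.34 in the other 3. After the first transplantation, Plod2 was low in Clone_57 at 6.59, with 8.01 to 8.10 in the other 3. In the same group the Col6a4 probe set 10912777 was low in Clone_218 at 4.28, with 4.42 to 4.44 in the others, a spread of small size at a level under 5.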

How the results depend on the processing

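No result changed direction past the threshold under any setting tried. The counts of members that follow were not set beside the share of all probe sets called in the same fit. They therefore show no excess or lack among the members. Leaving out an HF culture leaves a single culture in its group, so the counts of such fits rest on that culture. With each culture left out in turn, the number of members called ranged from 0 to 4 for TEC against HF before grafting (0 without PRP4mo_bulk, PRP4mo_Cl09 or YR219P5_Bulk_V; 4 without YR219P5cl7), 0 to 2 after the first (0 without PRP1cl11_VII, PRP4mo_bulk, PRP4mo_Cl09, Clone_217 or Clone_907; 2 without PRE16cl11_VII or Clone_218) and 1 to 4 after the second transplantation against ungrafted TEC (1 without PRP4mo_bulk, Clone_347 or Clone_354; 2 without PRP1cl11_VII, PRP4mo_Cl09, Clone_287 or Clone_194), 0 to 5 for grafted against ungrafted HF (5 without YR219P5cl7), 0 to 0 and 0 to 2 for grafted TEC against grafted HF (2 without Clone_287), 0 to 0 between both grafted TEC groups, 0 to 3 for the interaction (3 without YR219P5cl7) and 0 to 1 for donor stage (1 without Clone_907).

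With arrays as units, culture as a random block and the array number as replicate block, the counts were 11, 7 and 9 for the first 3 of these comparisons, 4 for HF, 5 and 4 for grafted TEC against grafted HF, 1 for the interaction, 3 for donor stage and 0 between both grafted TEC groups. That fit uses 1 correlation of 0.5541 for all genes, so its p can be too small where cultures differ more. The array number only names arrays of 1 culture and pairs no cultures. With clonal cultures only, 0 members were called in each of the first 3 comparisons; with only the compared groups, 0 after the first transplantation; with donor stage in the model, 3. Centring arrays on their medians gave 1 and 2 for grafted TEC against grafted HF, and moved the split of all calls between ungrafted TEC and HF from 148 higher and 90 lower to 171 and 61. For the called members, 64 of 100 values stayed past the threshold and 36 did not.

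Leaving out an HF array was not run for donor stage, which uses TEC cultures only. Signals under 5 and groups of 2 cultures limit what can be seen.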
